A study of Mus musculus with 6 samples.

Results

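Collagen genes in mouse top lip were compared between Gtf2ird1 knockout (KO) and wild type (WT) animals. The members were all rows of the deposited count matrix whose symbol reads Col, a number, a and a number, and that reached 1 CPM or more in 3 or more libraries. CPM is the count of a gene relative to the total of its library. Of 44 such rows, 38 passed this filter, among 15009 genes that passed it in all. The 38 were 11 fibrillar, 6 basement membrane, 6 FACIT (fibril-associated collagens with interrupted triple helices), 4 transmembrane, 4 beaded filament, 2 network, 2 multiplexin, 1 anchoring fibril and 2 other collagens. mRNA had been sequenced from the top lip of 3 KO and 3 WT adult females, 1 library per mouse, aged 2 to 6 months. Both groups were C57BL/6J, and the KO mice were homozygous for the targeted allele Gtf2ird1 tm1Hrd on a background crossed for more than 20 generations. The deletion is present in every cell of the animal, not in 1 cell type. Gtf2ird1 encodes a DNA-binding transcription regulator. The lip holds epidermis, hair follicles, dermis, muscle, nerve and vessels, so each library is a mixture of their RNA.

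Collagens are proteins of 3 chains wound into a triple helix, and each chain repeats the triplet glycine-X-Y, where X and Y are often proline and hydroxyproline. Fibrillar collagens (types I, II, III, V, XI, XXIV and XXVII) build the tensile fibrils of dermis, tendon, bone and cartilage, and in skin dermal fibroblasts make most of them. FACIT collagens sit on fibril surfaces or at tissue junctions, and collagen IV forms the sheet of the basement membrane. Transmembrane collagens stay anchored in the plasma membrane, such as collagen XVII in the hemidesmosome of basal keratinocytes. Collagen VI forms beaded filaments around cells, collagen VIII forms hexagonal networks, and collagen VII forms the fibrils that anchor the epidermal basement membrane to the dermis.

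The fibrillar genes stood apart from the other classes in their reading frames. In the longest coding transcript of each gene, a run was counted wherever at least 5 triplets in a row began with a glycine codon. For 9 of the 11 fibrillar genes the longest run was 337 to 344 triplets, with 338 in Col1a1 and 344 in Col3a1. Col24a1 and Col27a1, which encode fibrillar chains with a shorter helix, had longest runs of 216 and 217 triplets. The collagen IV genes had 22 to 27 separate runs, none longer than 66 triplets. Col7a1 had 20 runs with a longest of 75 triplets, Col17a1 had 14 with a longest of 55, and the FACIT genes had longest runs of 32 to 113. All non-fibrillar genes thus had shorter longest runs than every fibrillar gene.

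The stretches just before the start sites of 4 genes are shown because these genes carry the contrast described below. Col3a1 and Col5a1 encode dermal fibrillar chains with negative log2 fold changes, and Col7a1 and Col8a1 have the largest positive ones. Each stretch is the 250 bases before the RefSeq start (GRCm38.p6), printed 5′ to 3′ on the strand of the gene. Capitals mark matches on either strand to 4 motifs. They are the TATA box, searched as TATAAA, and the CCAAT box, searched by these same letters. The GC box was searched as GGGCGG. The last motif, GGATTA, is a core sequence to which the GTF2IRD1 protein is known to bind. None of the 4 stretches overlaps an annotated exon. They lie at chr1:45311288-45311537 (plus strand, Col3a1), chr2:27886175-27886424 (plus strand, Col5a1), chr9:108953336-108953585 (plus strand, Col7a1) and chr16:57754738-57754987 (minus strand, Col8a1).
Col3a1: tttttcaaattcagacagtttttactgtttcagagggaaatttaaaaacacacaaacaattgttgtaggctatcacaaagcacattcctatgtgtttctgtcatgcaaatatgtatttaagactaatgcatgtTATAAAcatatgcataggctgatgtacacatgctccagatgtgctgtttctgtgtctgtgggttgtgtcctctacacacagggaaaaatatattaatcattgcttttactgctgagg
Col5a1: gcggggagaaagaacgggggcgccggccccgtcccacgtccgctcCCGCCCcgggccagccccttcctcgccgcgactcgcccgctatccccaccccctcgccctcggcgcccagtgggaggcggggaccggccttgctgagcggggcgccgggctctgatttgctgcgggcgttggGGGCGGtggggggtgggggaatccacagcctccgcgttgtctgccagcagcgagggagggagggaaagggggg
Col7a1: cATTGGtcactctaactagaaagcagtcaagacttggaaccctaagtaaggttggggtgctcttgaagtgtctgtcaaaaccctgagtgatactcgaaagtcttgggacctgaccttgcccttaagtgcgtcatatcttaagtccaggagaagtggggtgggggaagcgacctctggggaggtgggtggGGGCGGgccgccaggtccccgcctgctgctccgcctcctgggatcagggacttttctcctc
Col8a1: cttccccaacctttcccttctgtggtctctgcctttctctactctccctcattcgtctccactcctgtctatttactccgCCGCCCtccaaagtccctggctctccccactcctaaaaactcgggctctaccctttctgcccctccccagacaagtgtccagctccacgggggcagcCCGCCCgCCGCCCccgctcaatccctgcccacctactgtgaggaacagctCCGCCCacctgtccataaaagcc

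Col3a1 held 1 TATAAA and no GC box, Col5a1 held 2 GC boxes, Col7a1 held 1 CCAAT box and 1 GC box, and Col8a1 held 4 GC boxes. Promoter stretches were found for 35 collagen genes, with 38 stretches in all. GGGCGG occurred in 22 of the 38, against 32.7% of 32851 stretches of the same length over all genes. TATAAA occurred in 5 (12.4% of all stretches) and CCAAT in 13 (33.8%). GGATTA occurred in 0 of the 38, against 6.25% of all stretches. These are matches of letters within 250 bases and carry no information on binding.

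Before any comparison, the label of the KO libraries was checked on Gtf2ird1 itself. It stood at 78.2, 70.2 and 70.7 CPM in WT and at 166, 162 and 144 CPM in the libraries labelled KO, a log2 fold change of 1.11 ± 0.13 (SE, adjusted p = 0.0018). Transcript of the targeted locus was therefore higher, not lower, in the libraries labelled KO, and gene-level counts do not show whether the deleted part is among it. Directions below compare the libraries as labelled. Total counts ran from 20164081 to 29491767 per library. CPM values are scaled by TMM (trimmed mean of M values), and levels per kilobase (kb) divide them by the summed exon length of the gene. That length joins all annotated exons and can exceed the length of any single transcript, so levels per kb of different genes compare only roughly. Library KO3 stood closer to WT than KO1 and KO2 did for many genes, so results are also given without it, although no label sets it apart from the other KO mice. As its own values led to this choice, calls made without KO3 describe the libraries and add no support for a genotype difference. Markers of other cell types in the lip were measured too, and their values are given after the collagen results.

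No collagen gene passed the test between genotypes in either direction, yet most pointed the same way. In edgeR's quasi-likelihood test with Benjamini-Hochberg adjustment over all genes, 0 of 38 were down-regulated at an adjusted p under 0.05 in KO, where 2.09% of all tested genes were. Likewise 0 of 38 were up-regulated, against 4.38% of all tested genes. Log2 fold changes were below 0 for 34 of 38 collagen genes (89.5%), against 52.0% of all tested genes. Their median was -0.57, set beside -0.02 over all tested genes, and they ran from -1.11 for Col22a1 to 0.36 for Col8a1. Only Col7a1, Col8a1, Col13a1 and Col28a1 had values above 0, and that of Col13a1 was -0.04 without KO3. Before adjustment, 13 genes had p under 0.05 in the lower direction (34.2%, against 16.0% of all genes) and 1, Col7a1, in the higher direction (13.5% of all genes). The 3 KO values all lay below the 3 WT values for 13 genes (34.2%, against 18.1% of all genes) and all above them for Col7a1 alone (13.5% of all genes). The paper describes overgrown, wrinkled lips in these KO mice and cites earlier histology that showed an enlarged epidermal layer. CPM is relative to the library total. Less collagen RNA per cell, fewer collagen-producing cells and more RNA from other cells thus cannot be told apart in such bulk libraries. The p-values measure the spread between these mice.

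**Figure D1:**
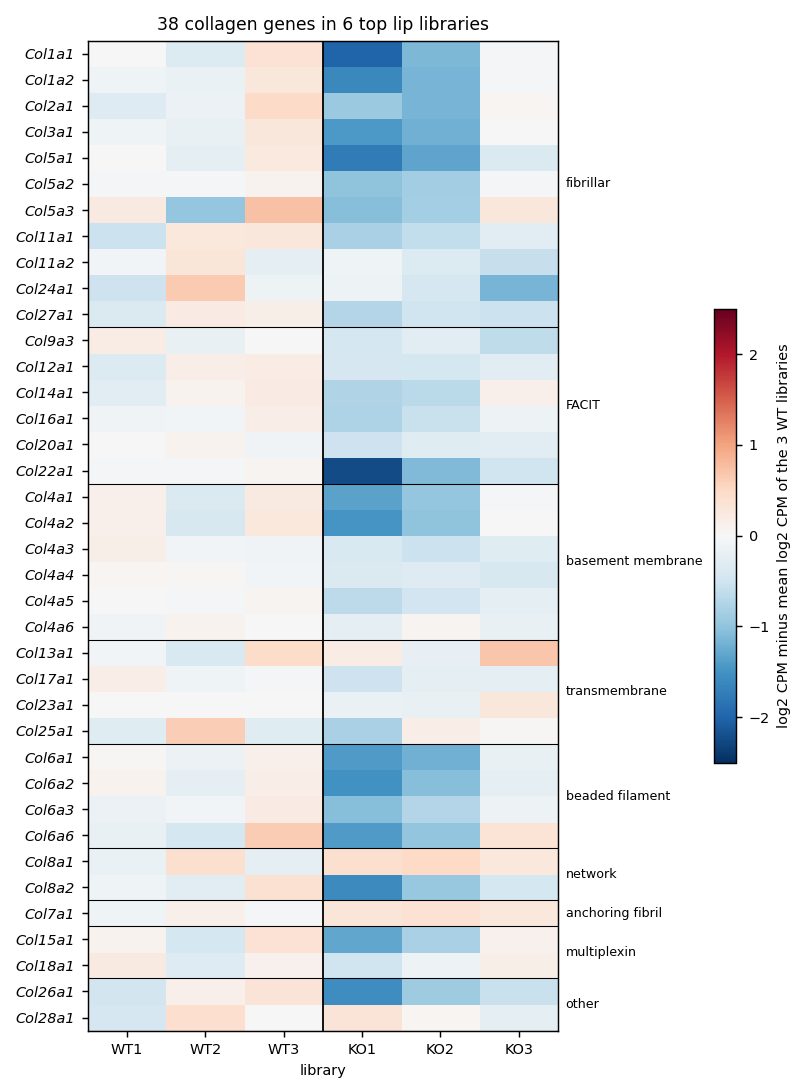
Heat map of the 38 collagen genes (rows, grouped by class) in the 6 libraries (columns); colour gives log2 CPM minus the mean log2 CPM of the 3 WT libraries. KO1 and KO2 are blue in the rows of types I, III, V and VI and of Col4a1 and Col4a2, where KO3 is paler or, for Col5a3 and Col6a6, pale red, while KO3 is the deepest of the KO cells for Col24a1, Col11a2 and Col4a4. Col7a1 and Col8a1 are the rows with red in all 3 KO libraries.

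The 3 KO libraries did not behave alike. KO1 and KO2 both lay below every WT library for 28 of the 38 genes, a pattern seen in 31.7% of all tested genes. KO3 was the highest of the KO libraries for 28 collagen genes, against 44.5% of all genes, and it lay within the WT range for 19, below it for 16 and above it for 3. KO1 was the lowest KO library for 26. Without KO3, 21 of the 38 collagen genes were called lower (55.3%) and 0 higher, and in that fit 16.2% of all genes were called lower and 16.9% higher. The median of the 38 was then -0.69. The choice of tool mattered as well. The edgeR exact test called Col5a1, Col8a2, Col22a1, Col6a1 and Col6a2 lower (5 genes, 13.2%, against 7.15% of all genes). DESeq2 called the first 3 of these (7.89%, against 7.61%). A fit with the replicate number as a block called Col5a1 and Col8a2 (5.26%, against 1.45%). The replicate numbers come from the labels only and were not taken to pair the mice, so the calls of that fit add no support.

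Types I and III, the bulk of dermal fibrils, had the highest levels in WT. Per kb, Col1a1 averaged 286 CPM in WT and 158 in KO, Col3a1 220 and 131, and Col1a2 166 and 95.2. The CPM of Col1a1 was 1820, 1444 and 2367 in WT and 458, 843 and 1813 in KO. KO1 and KO2 lay below every WT library and KO3 lay within the WT range. The log2 fold change was -0.86 ± 0.45 (SE, adjusted p = 0.24), -1.52 without KO3 (adjusted p = 0.0068) and -0.44 without KO1 (adjusted p = 0.525). Col3a1 followed the same order, with 1983, 1888 and 2617 CPM in WT against 790, 925 and 2147 in KO. Its log2 fold change was -0.75 ± 0.37 (adjusted p = 0.217), -1.33 without KO3 and -0.43 without KO1. Col1a2, whose chain joins those of Col1a1 in collagen I, had 1892, 1812 and 2472 CPM in WT and 666, 912 and 1971 in KO. Again only KO3 reached the WT range, and the log2 fold change was -0.80 ± 0.38 (adjusted p = 0.198), -1.38 without KO3 and -0.45 without KO1. Col1a1 lies on chr11:94936224-94953042 (GRCm38, plus strand).

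Collagen V is incorporated into collagen I fibrils and is known to limit their diameter. Col5a1, on chr2:27886425-28039514, gave 245, 205 and 286 CPM in WT and 72.8, 97.6 and 190 in KO. Every KO library lay below every WT library. Its log2 fold change of -1.03 ± 0.33 (adjusted p = 0.0934) was the largest among fibrillar genes, a KO to WT ratio of 0.491. It passed the threshold in the exact test (adjusted p = 0.0117), in DESeq2 (0.0265) and in the fit with the replicate block (0.0468). Its partner Col5a2 had 218, 220 and 241 CPM in WT and 113, 123 and 220 in KO. There KO3 lay within the WT range, and the log2 fold change was -0.57 ± 0.25. Col5a3, the other collagen V gene, varied so much within WT (36.3 to 117 CPM) that the groups overlapped widely.

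The fibrillar genes of cartilage and the minor fibrillar genes were far less abundant. Col11a1, which with Col11a2 forms the thin fibrils of cartilage, had 27.9, 48.5 and 49.7 CPM in WT and 23.2, 26.5 and 33.3 in KO. The groups overlapped through WT1 and KO3, and the log2 fold change was -0.60 ± 0.24 (adjusted p = 0.148). Col11a2 stayed near 3 CPM throughout, at 3.12, 4.04 and 2.74 in WT and 3.02, 2.56 and 2.19 in KO. Col2a1, the main cartilage collagen, was at 2.18 to 3.78 CPM in WT and 1.22 to 2.84 in KO. Col24a1 and Col27a1 averaged 16.5 and 17.4 CPM in WT and 10.9 and 11.4 in KO, and of these the groups were apart only for Col27a1. All 11 fibrillar genes had negative log2 fold changes, with a median of -0.61 and a range of -1.03 to -0.35. Only 2 of the 11, Col5a1 and Col27a1, had all KO values below WT, which is near the 18.1% of all genes. Without KO3 the fibrillar median was -1.08 and 8 of the 11 were called lower, where 16.2% of all genes were.

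**Figure D2:**
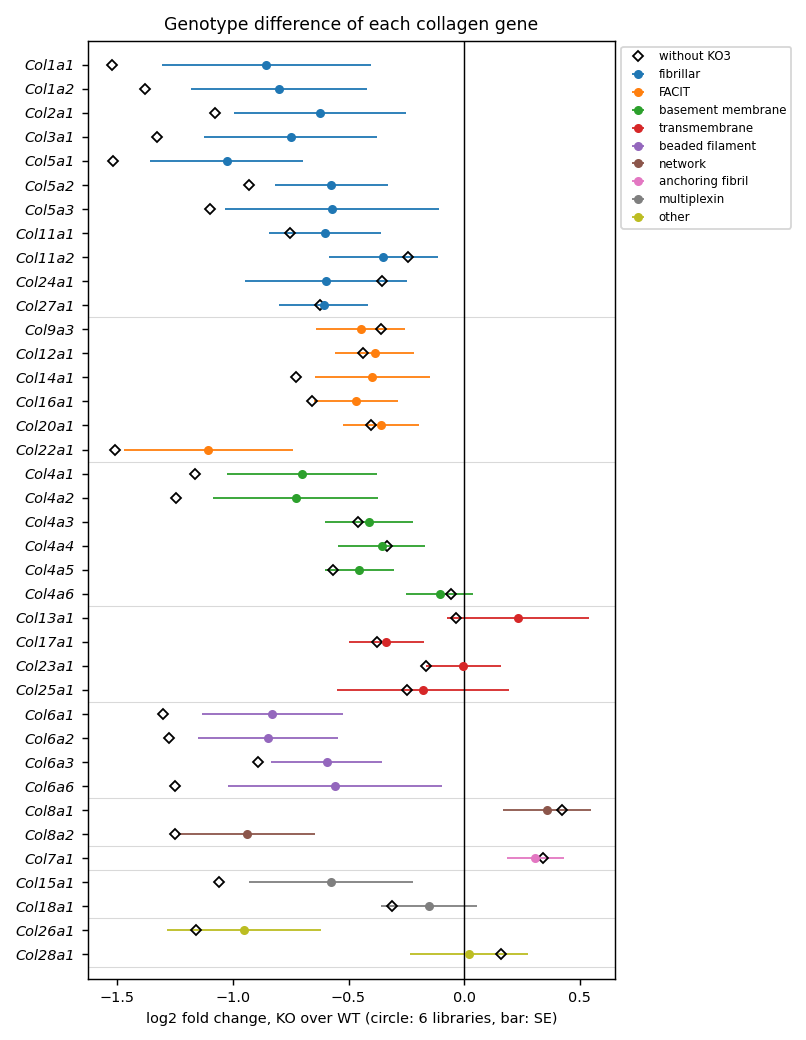
Log2 fold change of each collagen gene, KO over WT, on the horizontal axis, with genes by class on the vertical axis. Circles with bars are the fit to all 6 libraries with its standard error, and open diamonds are the fit without KO3. For types I, III, V and VI, Col4a1 and Col4a2 the diamond sits left of the bar's end, from -0.89 (Col6a3) to -1.52 (Col1a1), while the transmembrane genes and Col4a6 stay within 0.38 of 0.

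FACIT genes pointed the same way with smaller differences. Col16a1, the most abundant FACIT gene per kb (29.4 CPM per kb in WT, 21.3 in KO), is found in skin near the basement membrane and around fibrils. It had 186, 189 and 221 CPM in WT and 116, 134 and 181 in KO. The groups did not overlap, and the log2 fold change was -0.47 ± 0.18 (adjusted p = 0.138). Col22a1, a collagen of tissue junctions such as those between muscle and tendon, was rare, at 3.74, 3.83 and 4.09 CPM in WT and 0.82, 1.81 and 2.74 in KO. Its WT values were tight and all KO values lay below them. The log2 fold change of -1.11 ± 0.37 (adjusted p = 0.0988) was the largest of the 38, a KO to WT ratio of 0.465. It passed in the exact test (adjusted p = 0.023) and in DESeq2 (0.0441). The others were Col12a1, Col14a1, Col9a3 and Col20a1, between -0.36 and -0.45. Over the 6 FACIT genes the median was -0.42, and 4 had all KO values below WT, against 18.1% of all genes.

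All 6 basement membrane genes had negative log2 fold changes, from -0.73 to -0.11. Col4a1 and Col4a2 encode the chains found in nearly all basement membranes and lie head to head on chromosome 8, with starts 21 bases apart. Col4a1 had 296, 212 and 316 CPM in WT and 107, 138 and 262 in KO, and Col4a2 had 233, 162 and 254 in WT and 76.2, 106 and 210 in KO. For both, KO1 and KO2 lay below WT and KO3 lay within it. The log2 fold changes were -0.70 ± 0.32 and -0.73 ± 0.36 (adjusted p = 0.187 and 0.208). They were -1.16 and -1.25 without KO3, and -0.40 and -0.39 without KO1. Their annotated exons overlap by 22 bases on opposite strands, so a few reads could belong to either.

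The remaining collagen IV pairs are also head to head. Col4a3 and Col4a4, whose starts are 72 bases apart, encode chains best known from kidney, lung and inner ear. Col4a3 had 4.36, 3.78 and 3.73 CPM in WT and 3.02, 2.73 and 3.2 in KO. Col4a4 had 3.41, 3.36 and 3.15 CPM in WT and 2.56, 2.66 and 2.51 in KO. Both were low and apart between the groups, with log2 fold changes of -0.41 ± 0.19 and -0.36 ± 0.19 (adjusted p = 0.189 and 0.234). Col4a5 and Col4a6 lie on the X chromosome with starts 1309 bases apart, and their chains are present in the epidermal basement membrane. Col4a5 had 39.1, 38.2 and 41.6 CPM in WT and 25, 28.3 and 33.6 in KO, all KO values being below WT (log2 fold change -0.45 ± 0.15, adjusted p = 0.0967). Col4a6 had 25.1, 28.3 and 26.3 CPM in WT and 22.8, 28 and 23.2 in KO. Its groups overlapped and its log2 fold change was -0.11 ± 0.15 (adjusted p = 0.645). The 6 genes had a median of -0.43, and -0.51 without KO3.

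The transmembrane class stood closest to 0. Col17a1, the hemidesmosomal collagen of basal keratinocytes, stood close to Col1a2 per kb in WT (165 and 166 CPM per kb). This closeness rests on the exon lengths used, 6.011 kb for Col17a1 and 12.43 kb for Col1a2. Without division by length the WT means were 990.2 and 2059 CPM. The CPM of Col17a1 was 1106, 916 and 949 in WT and 685, 833 and 835 in KO. The groups did not overlap, but the distance between the lowest WT value and the highest KO value was small beside the spread in WT. The log2 fold change was -0.34 ± 0.16 (adjusted p = 0.201), and -0.38 without KO3. In KO1 and KO2 Col17a1 was above Col1a1, Col3a1 and Col1a2 per kb, at 114 and 139 CPM per kb against 69.7 and 128 for Col1a1, whereas in the 3 WT libraries and KO3 Col1a1 was higher. This order too depends on the lengths. In CPM, KO1 and KO2 had 458 and 843 for Col1a1, 666 and 912 for Col1a2, and 790 and 925 for Col3a1. Col17a1 thus exceeded only Col1a1 and Col1a2, and only in KO1. Col23a1 had 32.7 to 33.0 CPM in WT and 29 to 40.1 in KO, with a log2 fold change of 0.00 ± 0.16. Col13a1 had 2.81 to 5.04 CPM in WT and 3.19 to 5.99 in KO, and Col25a1 0.77 to 2.04 over all libraries. The class median was -0.09, and 0 of the 4 were called lower without KO3, where 16.2% of all genes were.

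Set against each other within a library by mean log2 CPM, the fibrillar, FACIT and basement membrane classes lay closer to the transmembrane class in KO. The mean log2 CPM of the fibrillar genes exceeded that of the transmembrane genes by 2.04, 2.08 and 2.37 in WT and by 1.44, 1.41 and 1.73 in KO. These differences were smaller in every KO library than in every WT library, KO3 included. In KO3 both means moved. Its transmembrane mean was 4.517, above the 4.273, 4.35 and 4.341 of WT, whereas KO1 and KO2 had 3.996 and 4.208. Its fibrillar mean was 6.242, close to the 6.315 of WT1. The FACIT mean exceeded the transmembrane mean by 0.71, 0.74 and 0.84 in WT and by 0.23, 0.32 and 0.29 in KO. Collagen IV exceeded it by 0.71, 0.45 and 0.65 in WT and by 0.19, 0.18 and 0.21 in KO. For both, the KO values lay below the WT values. The gaps between fibrillar, FACIT and basement membrane genes overlapped between genotypes, fibrillar minus basement membrane being 1.33, 1.62 and 1.73 in WT and 1.25, 1.23 and 1.51 in KO. These means weight rare and abundant genes alike, the 4 transmembrane genes include 1 near 1 CPM, and no test was made on them. By summed CPM, KO3 did not stand apart from WT. Its fibrillar genes summed to 6483 and its transmembrane genes to 882.5, against 5705 and 953.8 in WT2. KO1 and KO2 had fibrillar sums of 2186 and 2994 and transmembrane sums of 719.1 and 867.1.

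Beaded filament collagens had the lowest median of all classes. Col6a1, the fifth gene in level per kb (85.8 CPM per kb in WT, 48.3 in KO), gave 383, 337 and 407 CPM in WT and 141, 163 and 331 in KO. KO3 lay just under the lowest WT library, and the log2 fold change was -0.83 ± 0.31 (adjusted p = 0.122, exact test 0.0379). Col6a2 had 303, 243 and 320 CPM in WT and 101, 137 and 244 in KO, the groups meeting at 243 and 244. Its log2 fold change was -0.85 ± 0.30 (adjusted p = 0.115, exact test 0.0321). Col6a3, whose long chain completes the collagen VI trimer, had 238, 251 and 305 CPM in WT and 126, 158 and 242 in KO (log2 fold change -0.60 ± 0.24). Col6a6 ranged from 6.6 to 27.2 CPM and overlapped. The median of the 4 was -0.71, and -1.26 without KO3, when all 4 were called lower, as were 16.2% of all genes.

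The network genes Col8a1 and Col8a2, which encode collagen VIII, had log2 fold changes of opposite sign. Col8a2 had 35.9, 32.2 and 50.5 CPM in WT and 12.8, 20.2 and 28.8 in KO, with no overlap. Its log2 fold change was -0.94 ± 0.30 (adjusted p = 0.0901), and it passed in the exact test (0.0123), in DESeq2 (0.0297) and with the replicate block (0.0441). Col8a1 had 31.3, 46.3 and 29.8 CPM in WT and 46.4, 49.3 and 41.9 in KO, overlapping only through WT2. Its log2 fold change was 0.36 ± 0.19 (adjusted p = 0.241).

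Col7a1, the anchoring fibril gene made by keratinocytes and fibroblasts, was the 1 collagen gene with all KO values above WT. It had 104, 122 and 109 CPM in WT and 138, 144 and 133 in KO. KO3 did not stand apart here, and the log2 fold change of 0.31 ± 0.12 (adjusted p = 0.144) was 0.34 without it. Col18a1 and Col15a1 are the multiplexins of vascular and epithelial basement membranes. Col18a1 had 240, 164 and 223 CPM in WT and 147, 189 and 228 in KO, which overlapped throughout (log2 fold change -0.15 ± 0.21). Col15a1 had 92.4, 64.4 and 112 CPM in WT and 35.5, 50 and 94.7 in KO (-0.58 ± 0.35, adjusted p = 0.302). The other genes split, with Col26a1 at 1.42, 2.13 and 2.43 CPM in WT and 0.67, 1.05 and 1.33 in KO (-0.95 ± 0.33, adjusted p = 0.109). Col28a1 had 4.75, 8.42 and 6.3 CPM in WT and 7.93, 6.51 and 5.3 in KO, with a log2 fold change of 0.02 ± 0.26.

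The 6 collagen rows under the filter were Col9a1, Col9a2, Col10a1, Col19a1, Col6a4 and Col6a5. Col9a1 and Col9a2 encode chains of the cartilage collagen IX and Col10a1 marks hypertrophic cartilage. They held 0 to 2 counts (Col9a1), 9 to 38 (Col9a2), 3 to 27 (Col10a1), 2 to 13 (Col19a1), 2 to 8 (Col6a4) and 8 to 25 (Col6a5) per library, and were not tested. The nearest to passing were Col9a2 and Col10a1, which reached 0.95 and 0.90 CPM by library size in the lowest of their 3 highest libraries. The members just inside were Col25a1, Col26a1 and Col22a1, each with at least 1 CPM in 5 of the 6 libraries, including all 3 WT libraries. A gene that passes through its WT libraries can more easily show a lower KO value. Annotated exons of genes on the opposite strand overlap those of Col4a3, Col5a1, Col6a6, Col9a3, Col15a1 and Col22a1, and same-strand genes overlap Col3a1, Col7a1 and Col20a1. As the strand setting of the counts is not known here, reads of the opposite-strand genes cannot be told apart from those of the collagens.

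Summed over the 44 rows, collagen genes took 0.99%, 0.96% and 1.15% of all counts in WT and 0.42%, 0.57% and 0.97% in KO. Each share had a Wilson 95% interval narrower than 0.01 percentage points, which covers counting error only. The means were 1.03 ± 0.10% in WT and 0.65 ± 0.29% in KO (SD, 3 libraries each), and the groups overlapped through KO3 and WT2. Within the collagen counts, fibrillar genes held 63.0%, 63.3% and 67.7% in WT and 50.9%, 54.4% and 66.0% in KO. Col1a1, Col1a2 and Col3a1 together made up most of that, at 56.9% to 61.7% in WT and 44.5%, 48.7% and 60.4% in KO. The transmembrane share, nearly all Col17a1, was 11.4%, 10.6% and 8.17% in WT and 16.7%, 15.7% and 8.99% in KO. The share of basement membrane genes overlapped between genotypes, at 4.97% to 6.01% in WT and 5.45% to 5.54% in KO. The beaded filament share was apart between the groups, at 9.4%, 9.38% and 8.76% in WT and 8.73%, 8.48% and 8.55% in KO. Its lowest WT and highest KO values nearly met. Col7a1 held 1.04%, 1.36% and 0.90% in WT and 3.22%, 2.61% and 1.36% in KO. Its highest WT and lowest KO values were equal at 3 digits. KO1 and KO2 thus lay below WT in both the collagen share and its fibrillar part, and KO3 lay within the WT range in both.

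**Figure D3:**
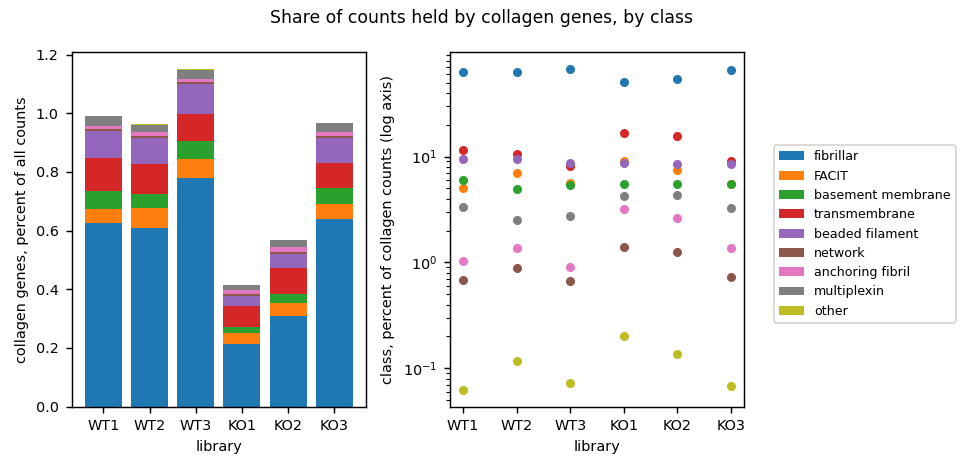
Left, the percent of all counts held by collagen genes in each library, stacked by class. Right, each class as a percent of the collagen counts of that library, on a log axis. The bars reach 0.96% to 1.15% in WT, 0.42% and 0.57% in KO1 and KO2, and 0.97% in KO3.

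The ratio of partner genes was followed in each library, per kb, for chains that assemble into 1 trimer. Col3a1 over Col1a1, the main dermal fibrillar genes, was added, though collagen III contains only Col3a1 chains. From genes past the filter, 10 pairs could be formed. Col4a1 over Col4a2 was 1.13, 1.16 and 1.10 in WT and 1.24, 1.16 and 1.11 in KO, while Col4a1 itself ran from 107 to 316 CPM. Col6a1 over Col6a2 ran from 2.27 to 2.66 over the 6 libraries. The exon lengths used were 4.38 kb for Col6a1 and 8.326 kb for Col6a2, although their reading frames hold 1025 and 1034 codons. For Col1a1 and Col1a2 they were 6.563 and 12.43 kb, for 1453 and 1372 codons. The size of a ratio thus depends on the annotated exons and is no measure of chain proportions. The same lengths apply to every library. Col1a1 over Col1a2 was 1.82, 1.51 and 1.81 in WT and 1.30, 1.75 and 1.74 in KO, and KO1 was the lowest. Col4a3 over Col4a4 (1.09 to 1.36), Col11a1 over Col11a2 (4.15 to 9.77), Col3a1 over Col1a1 (0.73 to 1.15) and Col6a3 over Col6a1 (0.23 to 0.36) overlapped between genotypes. So did Col4a5 over Col4a6, at 1.60 to 1.87 in WT and 1.20 to 1.71 in KO.

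For 2 of the 10 pairs the groups did not overlap. Col5a1 over Col5a2 was 1.27, 1.05 and 1.34 in WT and 0.73, 0.90 and 0.98 in KO, a difference of -0.50 in the mean log2 ratio. Col8a1 over Col8a2 was 0.50, 0.82 and 0.34 in WT and 2.07, 1.40 and 0.84 in KO, a difference of 1.38. Both hold in KO3, although for Col8a1 over Col8a2 the highest WT and lowest KO values nearly met, at 0.82 and 0.84. In a two-sided exact permutation test over libraries each gave p = 0.1, the smallest that 3 against 3 allows, and 0.5 after adjustment over the 10 pairs. The design cannot reach 0.05 with this test.

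**Figure D4:**
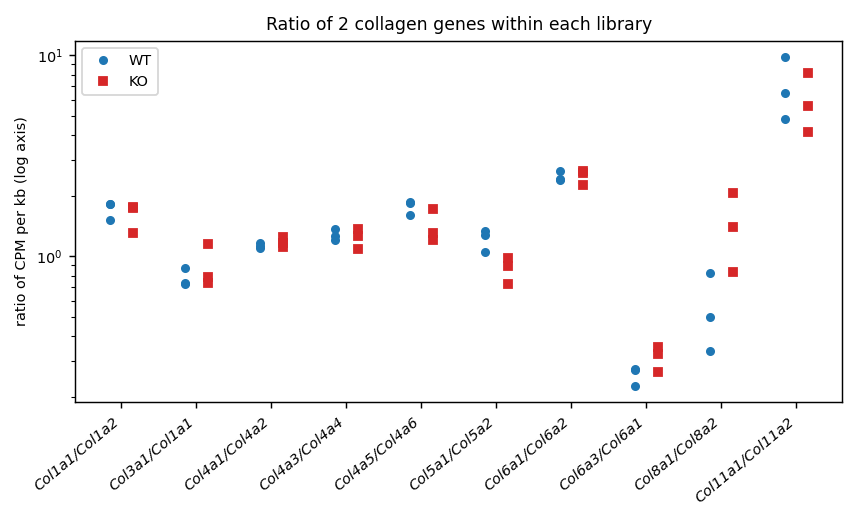
Ratio of CPM per kb for 10 pairs of collagen genes within each library, on a log axis; blue circles are WT and red squares KO libraries. The groups are apart only for Col5a1/Col5a2 and Col8a1/Col8a2, and the Col4a1/Col4a2 points stay between 1.10 and 1.24.

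Genes that process, cross-link or bind collagen were examined as 7 lists. Of 67 genes listed, 60 were tested, with a median log2 fold change of -0.27. By the quasi-likelihood test 1 was down-regulated (Adamts14) and 3 were up-regulated (P4ha2, Colgalt2 and Adamts3), where 2.09% and 4.38% of all tested genes were, so neither count stood far from the background. Colgalt2, a galactosyltransferase that glycosylates hydroxylysine, had 3.96, 5.65 and 4.5 CPM in WT and 151, 136 and 70.8 in KO. The log2 fold change was 4.66 (adjusted p = 0.000128). P4ha2, a catalytic subunit of collagen prolyl 4-hydroxylase, had 14.7, 23.8 and 18.2 CPM in WT and 158, 147 and 94 in KO. The log2 fold change was 2.81 (adjusted p = 0.00054). Both calls held whichever library was left out. While these enzymes were far above WT in all 3 KO libraries, the other prolyl hydroxylase subunits P4ha1, P4ha3 and P4hb had log2 fold changes of 0.23, -0.24 and 0.21, none called.

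The peptidases that remove the amino-terminal propeptide of fibrillar procollagens divided. Adamts3 had 2.4, 3.44 and 3.33 CPM in WT and 6.65, 7.63 and 5.03 in KO (log2 fold change 1.08, adjusted p = 0.0385). Adamts14 had 21.7, 27.1 and 23.3 CPM in WT and 15.2, 11.3 and 13.9 in KO (-0.84, adjusted p = 0.0292). Adamts2, the most abundant of this group in WT, had 69.6, 78.4 and 82.8 CPM in WT and 33.5, 35.4 and 73 in KO (-0.70, adjusted p = 0.154). Its KO3 value lay within WT, as for the type I and III genes. The calls of Adamts3 and Adamts14 were lost with the replicate block (adjusted p = 0.0564 and 0.0587) and on leaving out any library but KO3. Without KO3, 26 of the 60 processing genes were called lower and 5 higher, against 16.2% and 16.9% of all genes in that fit.

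The remaining lists held no call. Negative log2 fold changes were found for 52.0% of all tested genes. Among chaperones, Fkbp10 had the lowest p, with 29.2, 23.1 and 30.2 CPM in WT and 11.6, 13.2 and 22.3 in KO (log2 fold change -0.81, adjusted p = 0.0902). All 5 lysyl oxidase genes, which start the cross-linking of fibrils, had negative values (median -0.48), led by Loxl2 at 11.5, 10.3 and 12.7 CPM in WT and 5.27, 4.93 and 9.83 in KO (-0.79, adjusted p = 0.11). Of the fibril-binding proteins 9 of 12 were negative (median -0.55), and Fmod, a proteoglycan that regulates fibril growth, had 188, 192 and 266 CPM in WT and 78.8, 91.4 and 159 in KO (-0.98, adjusted p = 0.0731). Collagen receptors stood near 0 as a list (median -0.06 over 9). The exception was Itga11, an integrin subunit of fibroblasts that binds collagen I, at 21.7, 16.6 and 22.3 CPM in WT and 8.75, 8.78 and 14.5 in KO (-0.92, adjusted p = 0.062). Among the collagen-cleaving metalloproteinases, Mmp2 had 354, 322 and 444 CPM in WT and 201, 197 and 395 in KO (-0.50, adjusted p = 0.269).

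Of 14 factors known to drive collagen transcription, 2 were down-regulated and 0 up-regulated, beside 2.09% and 4.38% of all tested genes. Tgfb2, a ligand of the TGF-beta pathway, had 39.4, 35.7 and 35.2 CPM in WT and 20.1, 16.1 and 24.6 in KO (log2 fold change -0.86, adjusted p = 0.0311). Ctgf, a matricellular protein induced by that pathway, had 64.3, 108 and 66.4 CPM in WT and 41.7, 32.4 and 44.5 in KO (-1.01, adjusted p = 0.0431). In both, KO3 lay below every WT library, yet leaving out any library but KO3 ended the calls (adjusted p up to 0.166 and 0.217), and the replicate block ended that of Ctgf (0.0706). The median of the list was -0.38, with 10 of 14 negative, against 52.0% of all tested genes.

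Marker genes of the lip's cell types were read beside the collagens, and their part in the results was not tested. Over all tested genes, 2.09% were called lower, 4.38% were called higher and 52.0% had negative log2 fold changes. The 12 dermal fibroblast markers summed to 2070 to 2819 CPM in WT and 1854 to 2099 in KO, with a median log2 fold change of -0.48, 10 of 12 negative and 0 called. Their most abundant genes were Dcn (614, 985 and 693 CPM in WT, 663, 656 and 568 in KO) and Vim (403, 577 and 517 in WT, 261, 320 and 479 in KO). The positive ones were Postn and Fap, with log2 fold changes of 0.546 and 0.065. Postn had 109, 166 and 148 CPM in WT and 268, 235 and 114 in KO. Skeletal muscle markers summed to 8086 to 10690 CPM in WT and 3483 to 6927 in KO, with all 7 negative and Tnnt3 called (1375, 1200 and 1124 CPM in WT, 460, 577 and 805 in KO). Suprabasal keratinocyte markers summed to 17220 to 21950 CPM in WT and 28310 to 43050 in KO, with 1 of 5 negative and Ivl called (37.6, 69.7 and 82.4 CPM in WT, 191, 232 and 130 in KO). The negative one was Lor (3323, 1693 and 1755 CPM in WT, 1644, 2375 and 1400 in KO, log2 fold change -0.32). Krt1 and Krt10 held most of the sum, and the groups overlapped for Lor and Flg. Leaving out any library but KO3 ended the calls of Tnnt3 and Ivl. Krt1 had 8034, 9319 and 6706 CPM in WT and 22670, 17420 and 14560 in KO. The 6 basal keratinocyte markers summed to 9882 to 10680 CPM in WT and 9370 to 11220 in KO with a median of 0.03, Krt5 being at 4502 to 5372 CPM in WT and 4331 to 5263 in KO. Endothelial markers summed to 147 to 193 CPM in WT and 106 to 181 in KO (median -0.22), and Schwann cell markers to 315 to 337 and 165 to 282 (median -0.36). Cartilage markers summed to 173 to 211 CPM in WT and 104 to 149 in KO (median -0.70). Most of that sum was Sox9 (96.8 to 149 CPM in WT, 68 to 104 in KO) and Comp (46.3 to 59.8 in WT, 28 to 42.5 in KO). Hair follicle markers summed to 3542 to 4402 CPM in WT and 2092 to 2965 in KO (median -0.68), with Lef1 called in the lower direction, a call that also ended on leaving out any library but KO3. Among cartilage markers Matn3 and Lect1 were at or under 3 counts in every library.

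Measured against the fibroblast markers of the same library, a comparison chosen after the data had been seen, fewer collagen genes were separated by genotype. The mean log2 CPM of the 12 markers was 6.52, 6.90 and 6.83 in WT and 6.31, 6.32 and 6.52 in KO. After subtracting it, the groups overlapped for 33 of the 38 collagen genes, including all 11 fibrillar genes, and the median difference was -0.19. The fibrillar median was then -0.28, the basement membrane median -0.07 and the FACIT median -0.08. Col22a1 and Col26a1 lay below WT, and Col7a1, Col8a1 and Col23a1 above it. Other genes were not put on this scale, so these counts have no share over all tested genes beside them. The marker mean itself met between the groups, at 6.52 in WT1 and KO3. The part of fibroblast content in the collagen differences was not tested. On this scale Col7a1 was at 0.18, 0.04 and -0.06 in WT and 0.80, 0.85 and 0.54 in KO. Several of these markers encode matrix proteins themselves, so they are no independent count of fibroblasts.

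**Figure D5:**
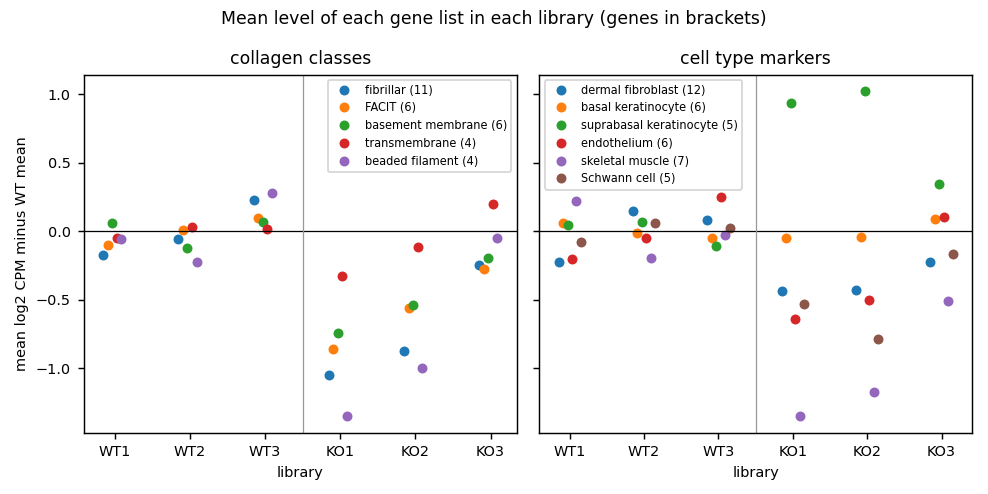
Mean log2 CPM of each gene list in each library minus its mean over the 3 WT libraries, for 5 collagen classes (left) and 6 cell type marker lists (right), with the number of genes in brackets. Fibrillar, FACIT, basement membrane and beaded filament collagens share low KO1 and KO2 points, with KO3 nearer 0. So do the dermal fibroblast, skeletal muscle, endothelium and Schwann cell markers. Suprabasal keratinocyte markers lie above 0 in all 3 KO libraries.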

How the data were processed

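Paired-end reads of top lip RNA from 3 WT and 3 KO mice were mapped by the authors to GRCm38 with TopHat2 2.0.8 and Bowtie2 2.1.0. The deposited values are raw counts per gene symbol from HTSeq, without normalization; the strand setting is not given in the sources used here. All 6 columns were used, 0 were left out, and 0 of the 26814 rows named no gene. The 15009 genes reaching 1 CPM in 3 or more libraries entered the test, made with edgeR 4.0.16 in R 4.3.3: TMM scaling, then the quasi-likelihood F test (glmQLFit with legacy=FALSE, glmQLFTest), genotype only, with Benjamini-Hochberg adjustment over all tested genes and a threshold of 0.05. No 2 libraries held equal counts for more than 0.886% of tested genes. The test scripts were tested on simulated data. Alternatives were the edgeR exact test, DESeq2 1.42.0, limma-voom (limma 3.58.1), other fits, scalings and filters, the replicate block, and leaving out each library. Chain ratios were compared with a two-sided exact permutation test.

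Positions, exon lengths and reading frames came from GENCODE M21 (GRCm38), and promoter stretches from RefSeq (GRCm38.p6), by symbol. Class medians carry no test. The collagen genes and all lists were chosen with earlier results of these data known. Values per library are given for members called, for the highest level per kb and the largest log2 fold change of each class, for both chains of the pairs, for list genes called or with the lowest p where a list held no call, for abundant markers and for Gtf2ird1. Other genes given with a value, such as Adamts2 and the P4ha1, P4ha3 and P4hb subunits, were chosen after their values were seen.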

Additional observations from a re-analysis of the deposited data

How the results depend on the processing

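With edgeR's quasi-likelihood test 0 collagen genes were called lower, and the count was 5 with the exact test, 3 with DESeq2, 2 with the replicate block and 0 to 21 when 1 library was left out, the 21 coming without KO3; every other alternative gave 0, and 0 were called higher under any. Of the processing genes, 1 was called lower, against 11 by the exact test, 10 by DESeq2, 2 with the replicate block and 0 to 26 when 1 library was left out (26 without KO3, 0 without any other), where 7.15%, 7.61%, 1.45% and, without KO3, 16.2% of all genes were called; 3 were called higher, 2 to 5 when 1 was left out. Class medians on leaving out 1 library ran from -1.08 to -0.43 (fibrillar), -1.26 to -0.44 (beaded filament), -0.21 to 0.12 (transmembrane, above 0 without WT2, at 0.09, and without KO1) and 0.26 to 0.44 (Col7a1, highest without WT2). Those of the network genes ran from -0.41 to -0.11 and of the multiplexins from -0.69 to -0.09 (main values -0.29 and -0.37, lowest without KO3); without a filter the network median was -0.88. Relative to the fibroblast markers, an alternative added after seeing the data, medians were -0.072 (basement membrane), -0.08 (FACIT), 0.256 (transmembrane), 0.061 (network), 0.67 (Col7a1) and -0.11 (other).

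Of 646 log2 fold changes of the 38 collagen genes over the alternatives, 628 kept their sign. The exceptions were Col13a1 (-0.037 to 0.489 on leaving out 1 library, below 0 without KO3), Col25a1 (-0.342 to 0.246, above 0 without WT2 or KO1), Col23a1 (main value -0.003, -0.166 to 0.136, 0.024 with DESeq2 and with its size factors, 0.051 without a filter, 0.0 with at least 10 counts in every library), Col18a1 (-0.311 to 0.061 on leaving out 1 library, above 0 without KO1), Col4a6 (-0.152 to 0.012, above 0 without WT2 or KO1) and Col28a1 (-0.166 to 0.312, below 0 without WT1, WT3 or KO1, with -0.001 by library size alone and -0.041 with upper-quartile scaling). The difference in the collagen share of counts stayed between -0.54 and -0.27 percentage points on leaving out 1 library. Differences in the log2 chain ratio on leaving out 1 library ran from -0.198 to 0.032 (Col1a1/Col1a2), -0.03 to 0.298 (Col3a1/Col1a1), -0.12 to 0.037 (Col4a3/Col4a4), -0.039 to 0.075 (Col6a1/Col6a2) and -0.486 to 0.039 (Col11a1/Col11a2); those of Col5a1/Col5a2 (-0.60 to -0.37) and Col8a1/Col8a2 (1.06 to 1.72) kept their sign. The replicate numbers are shared by the labels only: deviations of same-numbered libraries correlated at -0.192, 0.293 and 0.312, so they were not taken to pair the mice. The causes of these shifts were not tested. Genes near 1 CPM, such as Col25a1 and Col26a1, rest on few counts.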
